A study of Mus musculus with 4 samples.

Results

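Bone morphogenetic protein (BMP) signalling was described in primary mouse liver sinusoidal endothelial cells (LSECs), the fenestrated endothelium of the liver sinusoid, after transfection with small interfering RNA against the long noncoding RNA *Airn*. The 10 genes were taken from the table by symbol, with no cutoff on their values, from a choice made with earlier results of these data known: the ligands *Bmp2*, *Bmp4* and *Bmp6*, the receptors *Eng*, *Acvrl1* and *Bmpr2*, the inhibitory SMADs *Smad6* and *Smad7*, and the target genes *Id1* and *Id3*. All 10 were among the 18373 genes of the deposited table, and all 10 passed the filter on low counts. The study compared 2 libraries from LSECs given a negative control siRNA (NC) with 2 libraries from LSECs given siRNA against *Airn* (si*Airn*). In both groups the cells came from livers of 8-week-old Balb/c mice, were isolated by CD146 bead selection, were transfected for 48 h and were labelled as day 3 of culture. The protocols name a pair of separate siRNAs, whereas the labels of both si*Airn* libraries name siAirn1, and which of them went into each library could not be settled. The labels call the replicates biological without naming an animal or a culture, so the p-values measure the spread between these libraries, which may be technical.

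BMP ligands are secreted dimers that bring together type I and type II serine/threonine kinase receptors, and the type I receptor then phosphorylates SMAD1, SMAD5 and SMAD9, which enter the nucleus with SMAD4. In endothelial cells the type I receptor ALK1 (encoded by *Acvrl1*) works with the co-receptor endoglin (*Eng*) and a type II receptor such as BMPR2, and its high-affinity ligands are BMP9 (*Gdf2*) and BMP10. Among the genes switched on by this signal are *Id1* and *Id3*, which encode inhibitors of DNA binding, and *Smad6* and *Smad7*, whose products feed back to damp it. In liver, LSECs are known as the main source of BMP2 and BMP6, which instruct hepatocytes to make the iron hormone hepcidin.

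The libraries held 17308382 to 18371959 expected counts and were read as single-end reads of 50 bases. *Airn* itself was near the limit of detection, with 7 and 3 counts in NC, against 11 and 9 in the pair of libraries labelled si*Airn*. The si*Airn* to NC ratio of its summed counts was 2.02 (exact 95% interval 0.903 to 4.83, covering counting error only), so these counts did not show a lower level of the targeted RNA. The study itself reports efficient knockdown of *Airn* by the siRNAs it went on to use. The endothelial identity of the cells was clear in both groups from *Cdh5* (1523.9 to 2624.9 CPM) and *Stab1* (423.8 to 657.8 CPM), where CPM is counts per 1000000 after TMM scaling. Transcripts of other liver cells were also present. Stellate cell and fibroblast markers were led by *Dcn* (257.1 to 472.7 CPM) and *Acta2* (285.9 to 389.1 CPM), and macrophage markers by *Lyz2* (75.0 to 130.8 CPM) and *Cd68* (27.9 to 53.2 CPM). Of the hepatocyte markers only *Alb* was abundant (496.6 to 900.2 CPM). *Apoa1* was at 6.65 to 25.8 CPM, and the others listed were at 6.84 CPM or less. Markers of lymphocytes, led by *Ptprc* and *Cd3e*, summed to 7.003 to 8.197 CPM and those of cholangiocytes, led by *Krt19* and *Spp1*, to 30.4 to 34.1 CPM.

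Of the 10 genes, 8 fell in the si*Airn* libraries and none rose at an adjusted p under 0.05 (edgeR quasi-likelihood test with Benjamini-Hochberg adjustment over 13628 genes). The share called over the whole table was 16.8% in either direction, 8.56% lower and 8.27% higher. All 3 ligands fell, as did the receptors *Eng* and *Acvrl1*, the inhibitory *Smad6* and both target genes, whereas *Bmpr2* and *Smad7* did not pass the test. The median log2 fold change of the 10 genes was -0.57, beside 0.00 over all genes tested. In 9 of the 10 the NC and si*Airn* libraries did not overlap in CPM, which was the case for 62.7% of all genes tested. The study's cutoff for its gene lists was a change over 1.4-fold with p under 0.05, with no adjustment named. Taken with the unadjusted p of the main test, this cutoff was reached by 7 of the 10 and by 9.96% of all genes. The calls rested on both NC libraries: without NC replicate 1 the same edgeR test called 1 of the 10 genes (*Eng*) and 40 genes in all, and without NC replicate 2 it called 0 of the 10 and 0 in all, with 8 of the 10 and 3106 of all genes at an unadjusted p under 0.05. The median log2 fold change of the 10 genes was -0.61 and -0.56 in these fits. It was -0.58 with replicate 1 of the si*Airn* group left out and -0.50 with replicate 2 of that group left out. No other tool was run with a library left out. With a correction for transcript GC content and length 6 of the 10 genes and 8.53% of all genes were called, and 32.7% of all calls were higher in si*Airn*, against 49.1% without it. The direction of the 8 genes was the same under all 13 alternatives. Summed markers of LSECs and of endothelium in general were lower as well, at 0.67 and 0.735 of their NC level, and in bulk libraries fewer cells of a type and less RNA per cell cannot be told apart.

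**Figure D1:**
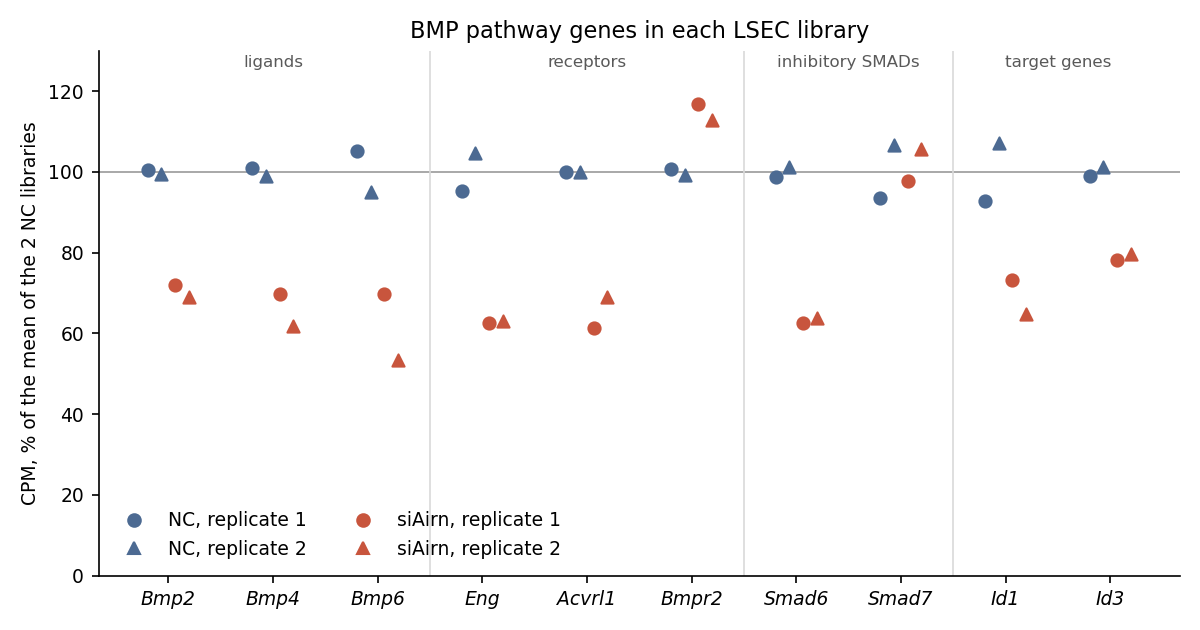
CPM of the 10 genes in each of the 4 libraries, as a percentage of the mean of both NC libraries, with NC in blue and siAirn in red, circles for replicate 1 and triangles for replicate 2. In 8 genes both siAirn libraries lie below both NC libraries, in *Bmpr2* both lie above, and in *Smad7* the groups overlap.

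Among the ligands, *Bmp6*, the endothelial BMP that rises with liver iron and drives hepcidin, was lower in si*Airn*. It stood at 238.3 and 215.3 CPM in the NC libraries and at 158.0 and 121.3 CPM in the si*Airn* libraries. Both si*Airn* libraries were lower than both NC libraries, and si*Airn* replicate 2 was the lowest. The log2 fold change was -0.70 (SE 0.12, 95% interval -0.99 to -0.41, adjusted p = 0.0154), a level 38.4% lower, and it ranged from -0.52 to -0.90 when single libraries were left out.

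*Bmp2*, the other hepcidin-inducing ligand of LSECs, stood at 259.5 and 257.3 CPM in NC and at 186.0 and 178.4 CPM in si*Airn*. Replicates of each group lay close together and the groups were well apart. The log2 fold change was -0.50 (SE 0.06, adjusted p = 0.00683), a level 29.5% lower. *Bmp4*, a ligand of the same subgroup as *Bmp2*, was less abundant, at 34.8 and 34.1 CPM in NC and 24.1 and 21.3 CPM in si*Airn*. It too was lower in both si*Airn* libraries, by 0.60 on the log2 scale (SE 0.09, adjusted p = 0.0116). Exons of an antisense gene, *Gm15217*, cover 3.96% of the exonic bases of *Bmp4*, and exons of *Txndc5* on the opposite strand cover 5.74% of those of *Bmp6*. Whether the counting used strand is not given in the sources used here, so reads in those stretches cannot be assigned to one strand.

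Per length, *Bmp2* and *Bmp6* were near each other in NC, at 77.29 and 76.27 FPKM for *Bmp2* and 77.01 and 69.23 FPKM for *Bmp6*, while *Bmp4* was at 21.35 and 20.87 FPKM. In the si*Airn* libraries *Bmp2* was at 56.51 and 53.74 FPKM, *Bmp6* at 51.62 and 38.51 FPKM and *Bmp4* at 15.27 and 13.26 FPKM. The order of the 3 ligands was the same in every library, but in NC replicate 1 *Bmp2* and *Bmp6* were almost equal, with a *Bmp6* to *Bmp2* ratio of 0.996, and the ratio fell within 0.717 to 0.913 in the other libraries. The *Bmp2* to *Bmp4* ratio was 3.62 to 3.65 in NC and 3.70 to 4.05 in si*Airn*.

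The ligand that moved the other way was *Bmp10*, a high-affinity ligand of ALK1 that stellate cells are known to make in liver. It stood at 120.1 and 141.4 CPM in NC and at 205.0 and 284.0 CPM in si*Airn*. The groups were apart, and *Bmp10* rose by 0.90 on the log2 scale (SE 0.15, adjusted p = 0.0142). The call was lost without NC replicate 1 (0.79, adjusted p = 0.106) and without NC replicate 2 (1.02, adjusted p = 0.108), and the value ranged from 0.65 to 1.12 with single libraries left out. Summed CPM of the 10 stellate cell and fibroblast markers was 1121.6 and 1322.4 in NC, against 1374.7 and 1789.6 in si*Airn*. Of these markers 4 rose and none fell, beside 8.27% of all genes called higher. The part of this marker difference in the *Bmp10* result was not tested. Of the summed FPKM of 12 BMP and GDF ligand genes, *Bmp10* made up 34.5% and 39.2% in the NC libraries and 55.8% and 65.7% in the si*Airn* libraries, whereas *Bmp2* went from 27.1% and 25.8% to 18.1% and 14.9%, and *Bmp6* from 27.0% and 23.5% to 16.6% and 10.6%. The total itself was 285.3 and 295.2 FPKM in NC and 311.7 and 361.8 FPKM in si*Airn*. The ratio of *Bmp10* to *Bmp6* per length was 1.28 and 1.67 in NC and 3.37 and 6.17 in si*Airn*.

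**Figure D2:**
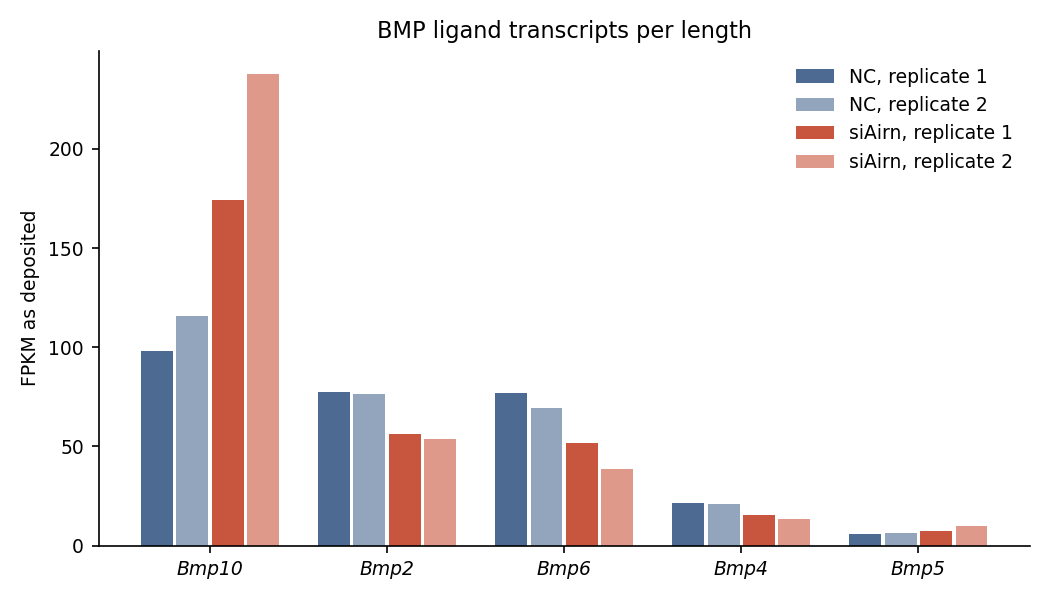
FPKM of the 5 most abundant BMP ligand genes in each library, 1 bar a library, NC in blue and siAirn in red. *Bmp2*, *Bmp6* and *Bmp4* are lower and *Bmp10* is higher in both siAirn libraries.

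The ligand of ALK1 with the highest affinity, *Gdf2* (BMP9), was scarce, at 5.37 and 7.57 CPM in NC and 7.86 and 11.3 CPM in si*Airn* (log2 fold change 0.56, SE 0.24, adjusted p = 0.147). *Bmp5*, close in sequence to *Bmp6*, was at 21.7 and 24.0 CPM in NC and 27.2 and 35.8 CPM in si*Airn* (log2 fold change 0.46, SE 0.14, adjusted p = 0.0662). *Gdf6* (log2 fold change 0.51, adjusted p = 0.0941) and *Bmp8b* (-0.13, adjusted p = 0.703) did not pass the test either, and *Bmp7* had 0 counts in all 4 libraries. Of the 10 other ligands listed, 5 were tested and *Bmp10* was the only one called in the main test. Without si*Airn* replicate 1, *Gdf2* (0.80, adjusted p = 0.0269) and *Bmp5* (0.65, adjusted p = 0.004) were called as well, and without si*Airn* replicate 2 they were at 0.28 and 0.25.

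Endoglin was by far the most abundant of the 10 transcripts. *Eng*, which presents BMP9 and BMP10 to ALK1 and is mutated in hereditary haemorrhagic telangiectasia, ranked 99th of all genes by mean FPKM in NC. Its CPM was 2749.6 and 3025.2 in the NC libraries and 1809.3 and 1821.0 in the si*Airn* libraries. Both si*Airn* libraries lay far below both controls and were nearly equal to each other. The log2 fold change was -0.67 (SE 0.07, 95% interval -0.83 to -0.51, adjusted p = 0.00496), a level 37.1% lower. *Acvrl1*, the signalling partner of endoglin and also mutated in that disease, was the least abundant of the 10 per length. It was at 32.3 CPM in both NC libraries and at 19.8 and 22.3 CPM in the si*Airn* libraries, again with no overlap. Its log2 fold change was -0.62 (SE 0.09, adjusted p = 0.0112), a level 34.9% lower. *Eng* was 88.8 and 98.4 times as abundant as *Acvrl1* per length in NC and 96.1 and 85.4 times in si*Airn*, so their ratio overlapped between the groups while both levels fell. Opposite-strand exons of *Fpgs* cover 1.51% of the exonic bases of *Eng* and those of *Gm16031* cover 2.98% of *Acvrl1*.

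*Bmpr2*, the type II receptor shared by many BMP ligands and mutated in pulmonary arterial hypertension, stood apart from its partners. It was at 205.9 and 202.6 CPM in NC and at 238.6 and 230.5 CPM in si*Airn*. Both si*Airn* libraries were higher, but the log2 fold change of 0.20 (SE 0.06, 95% interval 0.06 to 0.34) had an adjusted p of 0.0637 and is not called. Its sign depended on a correction for transcript GC content and length, under which the log2 fold change was -0.17 (adjusted p = 0.104). With that correction and the replicate number as a block it was -0.17 with an adjusted p of 0.00238, against 0.20 and 0.00704 with the block alone. All annotated exons of *Bmpr2* together cover 17983 bases, the most of the 10 genes. This is not the length used in the correction, which is that of the longest transcript. Log2 fold changes over the whole table had a Spearman correlation of 0.364 with the length of the longest transcript and -0.332 with its GC content. These correlations are descriptions across genes, which are not independent.

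The sequences before the annotated starts are shown for *Eng* and *Bmpr2*, receptors whose fold changes had opposite signs in the main test, from RefSeq promoters of GRCm38.p6, where 6 of the 10 genes had an entry (*Bmp4*, *Bmp6*, *Eng*, *Bmpr2*, *Smad6* and *Id3*, without *Bmp2*, *Acvrl1*, *Smad7* and *Id1*). Each line gives the 250 bases upstream of the start, 5′ to 3′ on the strand of the gene, with capitals marking GTCTG or its complement CAGAC, which hold the core bound by SMAD proteins, and GGCGCC, a GC-rich SMAD element that reads the same on both strands. *Eng* lies on the plus strand at chr2:32646345-32646594 and *Bmpr2* on the plus strand at chr1:59764029-59764278.
Eng: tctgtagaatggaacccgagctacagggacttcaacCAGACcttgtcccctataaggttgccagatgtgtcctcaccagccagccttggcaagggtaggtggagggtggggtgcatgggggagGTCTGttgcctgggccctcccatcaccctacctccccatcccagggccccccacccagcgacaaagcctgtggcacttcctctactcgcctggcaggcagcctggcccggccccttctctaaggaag
Bmpr2: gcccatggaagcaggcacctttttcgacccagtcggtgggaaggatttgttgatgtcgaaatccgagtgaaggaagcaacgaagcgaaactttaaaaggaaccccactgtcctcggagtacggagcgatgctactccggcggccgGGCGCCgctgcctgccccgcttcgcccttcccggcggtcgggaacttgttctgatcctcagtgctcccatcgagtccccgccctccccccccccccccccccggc
*Eng* holds GTCTG matches that begin 214 and 127 bases before the start and no GGCGCC, and *Bmpr2* holds a single GGCGCC, 105 bases before the start, and no GTCTG. Over all 32851 promoters of the same length, 42.2% hold GTCTG or its complement and 9.59% hold GGCGCC, so neither match is rare. Both motifs were searched on both strands and share no overlapping bases in these windows. These matches describe letters only.

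The inhibitory SMADs parted. *Smad6*, which blocks BMP type I receptors and SMAD1 and is itself a target of the pathway in endothelium, was at 74.1 and 75.9 CPM in NC and 46.9 and 47.8 CPM in si*Airn*. The replicates nearly coincided and the groups were far apart. The log2 fold change was -0.66 (SE 0.07, adjusted p = 0.00496), a level 36.9% lower. *Smad7*, which damps both BMP and transforming growth factor-β receptors, was at 65.2 and 74.4 CPM in NC and at 68.3 and 73.7 CPM in si*Airn*. Both si*Airn* values lay between the NC values. Its log2 fold change was 0.02 (SE 0.09, adjusted p = 0.874), with a 95% interval of -0.18 to 0.23, and its sign changed in 4 of the 13 alternatives. The order of the pair per length was reversed between the groups, since the *Smad6* to *Smad7* ratio in FPKM was 1.44 and 1.32 in the NC libraries and 0.945 and 0.907 in the si*Airn* libraries.

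Both ID genes fell. *Id1*, the most used read-out of BMP signalling in endothelium, was at 28.7 and 33.1 CPM in NC and at 22.6 and 20.0 CPM in si*Airn*. The groups did not overlap, although the NC libraries differed more from each other than in *Id3*. The log2 fold change was -0.54 (SE 0.11, adjusted p = 0.0232), a level 31.1% lower. *Id3*, which encodes a closely related inhibitor of basic helix-loop-helix factors, was at 75.3 and 77.0 CPM in NC and at 59.5 and 60.7 CPM in si*Airn*. Here the replicates were tight and the difference was the smallest of the 8 called, with a log2 fold change of -0.34 (SE 0.06, adjusted p = 0.0177), a level 21.1% lower. The counts of *Id3* were the only ones of the 10 that were not whole, so part of its reads had been shared out between genes. With the GC and length correction *Id1* was at -0.34 (adjusted p = 0.0917) and *Id3* at -0.14 (adjusted p = 0.187), and neither was called.

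The upstream sequence of *Id3*, the target gene with a promoter entry, lies on the plus strand at chr4:136143572-136143821 of GRCm38.p6 and is shown with the same capitals because ID genes are read-outs of BMP signalling.
Id3: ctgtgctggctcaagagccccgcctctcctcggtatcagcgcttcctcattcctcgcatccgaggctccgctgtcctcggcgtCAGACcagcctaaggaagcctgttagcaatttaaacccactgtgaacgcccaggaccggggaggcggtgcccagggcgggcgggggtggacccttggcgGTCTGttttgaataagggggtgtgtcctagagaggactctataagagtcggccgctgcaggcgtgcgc
It holds GTCTG matches that begin 167 and 68 bases before the start and no GGCGCC. Of the other called genes with an entry, apart from *Eng* above, *Bmp6* holds a single GTCTG match, 119 bases before the start, and *Bmp4* and *Smad6* hold none of the motifs. The called genes *Bmp2*, *Acvrl1* and *Id1* had no entry. GTCTG or its complement is held by 42.2% of all promoters of this length, and the matches describe letters only.

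Both other ID genes, from the wider BMP list, fell as well. *Id4* was at 133.5 and 153.9 CPM in NC and at 79.99 and 73.49 CPM in si*Airn* (log2 fold change -0.91, SE 0.09, adjusted p = 0.00496), and *Id2* at 51.7 and 62.6 CPM in NC and 37.3 and 41.3 CPM in si*Airn* (-0.54, SE 0.11, adjusted p = 0.0216). In all 4 ID genes both si*Airn* libraries therefore lay below both NC libraries. Groups that did not overlap, in either direction, were found in 62.7% of all genes tested. Other genes known to respond to BMP or ALK1 did not pass the test. *Atoh8*, a BMP-responsive transcription factor, had a log2 fold change of -0.28 (adjusted p = 0.0787) and *Gja4* -0.33 (adjusted p = 0.235). *Hey1* was at -0.51 (adjusted p = 0.291), *Hey2* at -0.02 (adjusted p = 0.985) and *Msx1* at 0.27 (adjusted p = 0.639). The GC and length correction put *Atoh8* at -0.11, *Gja4* at -0.12, *Hey1* at -0.41, *Hey2* at -0.04 and *Msx1* at 0.45.

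The wider list held 47 genes of the pathway beyond the 10, of which 45 were in the table and 34 were tested. In it 4 genes rose (*Bmp10*, *Bmpr1a*, *Neo1* and *Grem1*), 3 fell (*Id4*, *Id2* and *Smurf1*) and 27 did not pass the test, with a median log2 fold change of 0.19. The 7 calls among 34 genes are near the share over the whole table, 16.8% in either direction. The count depended on the libraries, at 1 without NC replicate 1, 0 without NC replicate 2 (edgeR, 11 at an unadjusted p under 0.05), 11 once si*Airn* replicate 1 was left out and 4 once replicate 2 of that group was left out. *Bmpr1a*, which encodes the type I receptor ALK3, was at 28.4 and 31.0 CPM in NC and 37.8 and 53.0 CPM in si*Airn*. It rose by 0.61 on the log2 scale (SE 0.16, adjusted p = 0.0411), and by 0.35 without si*Airn* replicate 2, where it was not called. The call was also lost under the GC and length correction (0.38, adjusted p = 0.171) and in both limma fits on log2 FPKM (adjusted p = 0.0601 and 0.0585). *Neo1*, encoding neogenin, a receptor for the repulsive guidance molecules that act as BMP co-receptors, was at 29.0 and 30.1 CPM in NC and 39.0 and 48.7 CPM in si*Airn* and rose by 0.57 (SE 0.12, adjusted p = 0.0226), a call that was lost under the same correction (0.37, adjusted p = 0.0822). *Grem1*, encoding the secreted BMP antagonist gremlin 1, rose by 1.61 (SE 0.35, adjusted p = 0.0272) from 0.875 and 0.608 CPM to 2.16 and 2.37 CPM, a low level in all libraries. Its call was lost without si*Airn* replicate 2 (1.54, adjusted p = 0.0832), and without NC replicate 1 or 2 (adjusted p = 0.103 and 0.172).

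The remaining receptors did not pass the test. *Acvr1*, which encodes ALK2, was at 83.5 and 75.5 CPM in NC and 80.8 and 76.8 CPM in si*Airn* (log2 fold change -0.01, 95% interval -0.19 to 0.17, adjusted p = 0.935). The type II receptor gene *Acvr2a* had a log2 fold change of 0.34 (adjusted p = 0.088) and *Acvr2b* 0.07 (adjusted p = 0.798). The GC and length correction put them at 0.10 and 0.15. With single libraries left out *Acvr2a* ranged from 0.21 to 0.47. The co-receptor genes *Rgma* and *Rgmb* were at 0.11 (adjusted p = 0.733) and -0.04 (adjusted p = 0.796), and *Bmpr1b*, at 0.759 to 1.66 CPM, was at 0.52 (adjusted p = 0.432). Of the 9 other receptor and co-receptor genes, 8 were tested and 2 were called, *Bmpr1a* and *Neo1*, both higher in si*Airn*. The share called over all genes was 16.8% in either direction. Both calls were lost under the GC and length correction.

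The signal-transducing SMADs showed no called change either. *Smad1* was at 88.8 and 84.4 CPM in NC and 92.3 and 88.0 CPM in si*Airn* (log2 fold change 0.06, 95% interval -0.10 to 0.21, adjusted p = 0.58). *Smad5* had a log2 fold change of 0.21 (adjusted p = 0.111), *Smad4*, the common partner, 0.15 (adjusted p = 0.163) and *Smad9*, at 0.774 to 1.27 CPM, 0.28 (adjusted p = 0.661). Of the ubiquitin ligases that mark SMADs and receptors for destruction, *Smurf1* fell by 0.22 (SE 0.06, adjusted p = 0.0499), at the threshold. *Smurf2* had a log2 fold change of 0.24 (adjusted p = 0.0697). *Smurf1* was at -0.23 and *Smurf2* at 0.09 under the GC and length correction. The *Smurf1* call held in 5 of 13 alternatives. It was lost with DESeq2 (adjusted p = 0.0838), with no filter beyond 1 count (0.0577) and in both limma fits (0.108 and 0.109). It was also lost with any 1 library left out, at log2 fold changes of -0.24 to -0.20. Among 8 tested antagonists and modulators, *Grem1* was the one called, and the others ranged from -0.11 (*Bmper*) to 0.47 (*Fst*).

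**Figure D3:**
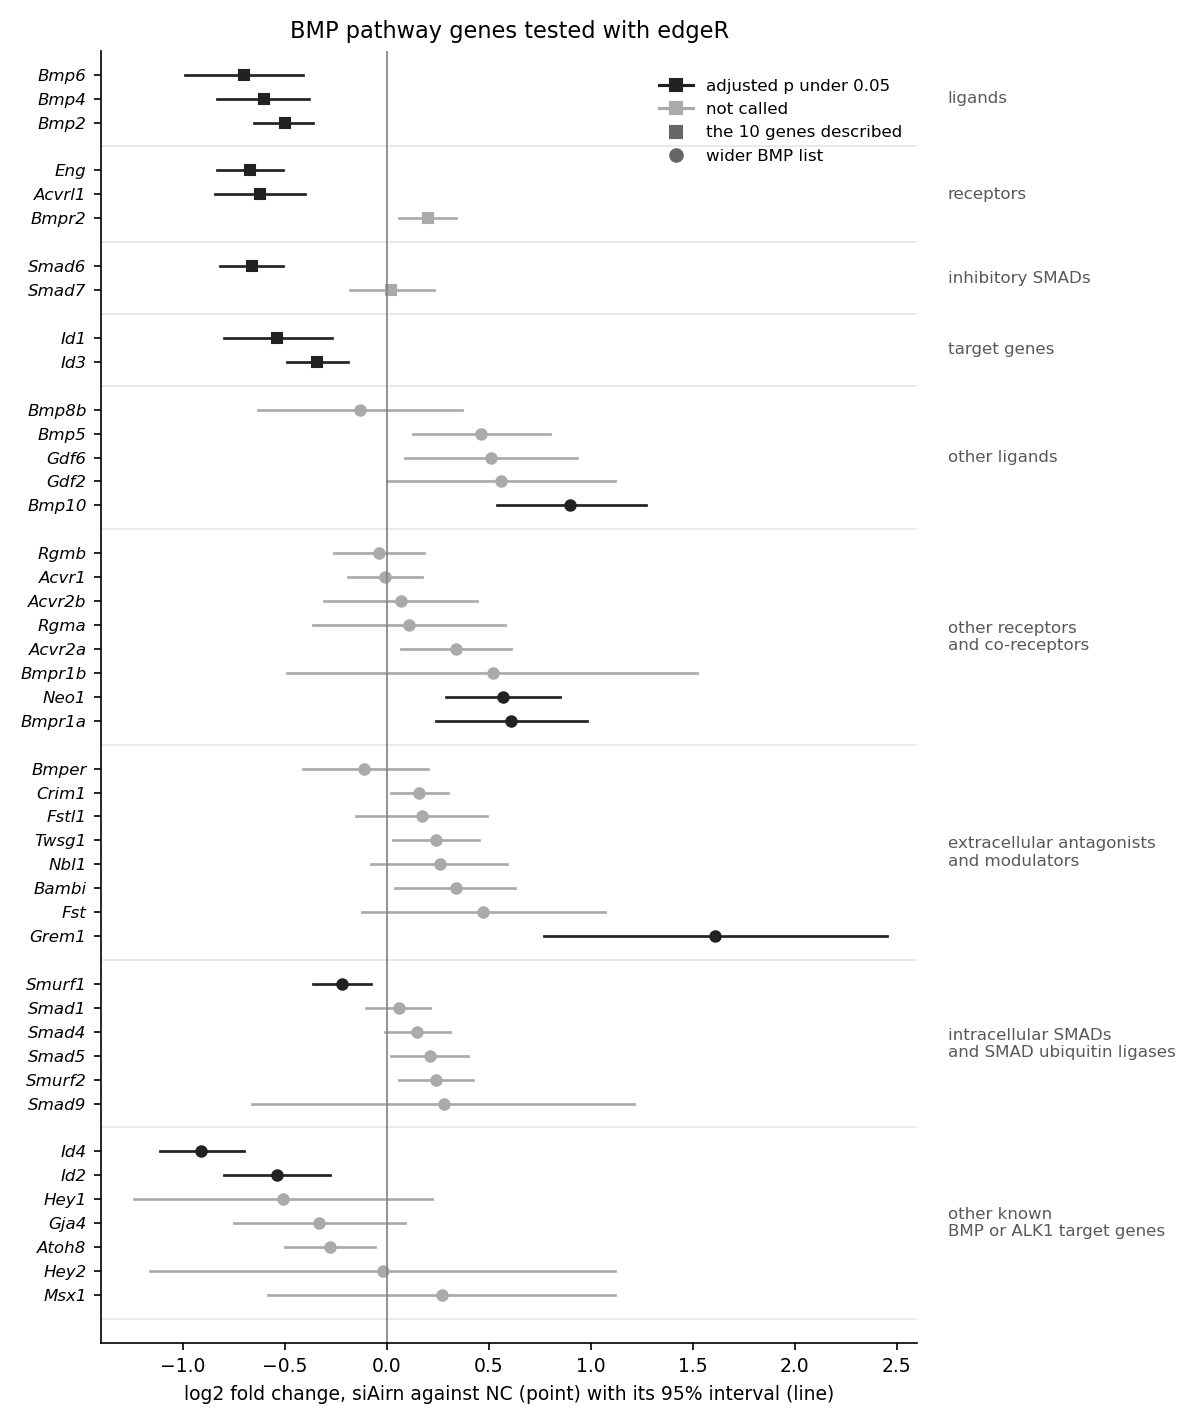
Log2 fold change (siAirn against NC) with its 95% interval for the 10 genes (squares) and the 34 tested genes of the wider BMP list (circles), grouped by role, black where the adjusted p was under 0.05. The black squares lie at -0.70 to -0.34, and the black circles lie on both sides of 0.

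Per length the 10 genes kept a similar order in both groups. Mean FPKM in NC ran from *Eng* (859.1 ± 55.5, SD, n = 2) through *Id3* (90.1 ± 1.37), *Bmp2* (76.8 ± 0.721), *Bmp6* (73.1 ± 5.5), *Id1* (37.3 ± 3.78), *Smad6* (26.0 ± 0.396), *Bmp4* (21.1 ± 0.339), *Smad7* (18.9 ± 1.47) and *Bmpr2* (18.8 ± 0.311) to *Acvrl1* (9.18 ± 0.0707). The neighbours *Bmp2* and *Bmp6*, and *Smad7* and *Bmpr2*, differed by less than the SD of 1 of the pair. In si*Airn* the first 5 and *Acvrl1* kept their places, while *Bmpr2* (22.02 ± 0.7) moved from 9th to 6th and *Smad7* (18.3 ± 0.75) to 7th, ahead of *Smad6* (16.9 ± 0.198) and *Bmp4* (14.3 ± 1.42).

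Markers of the endothelium moved in the same direction as the 8 genes. Of 8 LSEC markers, 7 fell, with a median log2 fold change of -0.60, and their summed CPM was 3426.3 and 3449.2 in NC and 2419.0 and 2187.2 in si*Airn*. The most abundant were *Oit3* (-0.61) and *Stab1* (-0.55). Of 7 pan-endothelial markers, 4 fell, with a median of -0.44 and summed CPM of 6205.6 and 5570.4 in NC and 4719.8 and 3939.7 in si*Airn*, led by *Cdh5* (-0.58) and *Pecam1* (-0.53). *Kdr* (0.02, adjusted p = 0.901) and *Tek* (-0.05, adjusted p = 0.755), also endothelial, did not pass the test. Of 11 tested macrophage markers, 7 fell, and their sum went from 243.2 and 310.2 CPM to 185.9 and 156.2 CPM. Hepatocyte markers summed to 511.5 and 662.5 CPM in NC and to 729.8 and 941.5 CPM in si*Airn*, nearly all of it *Alb*, and 1 of 6 tested rose (*Apoa1*). Over all genes tested, 8.56% were called lower and 8.27% higher.

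**Figure D4:**
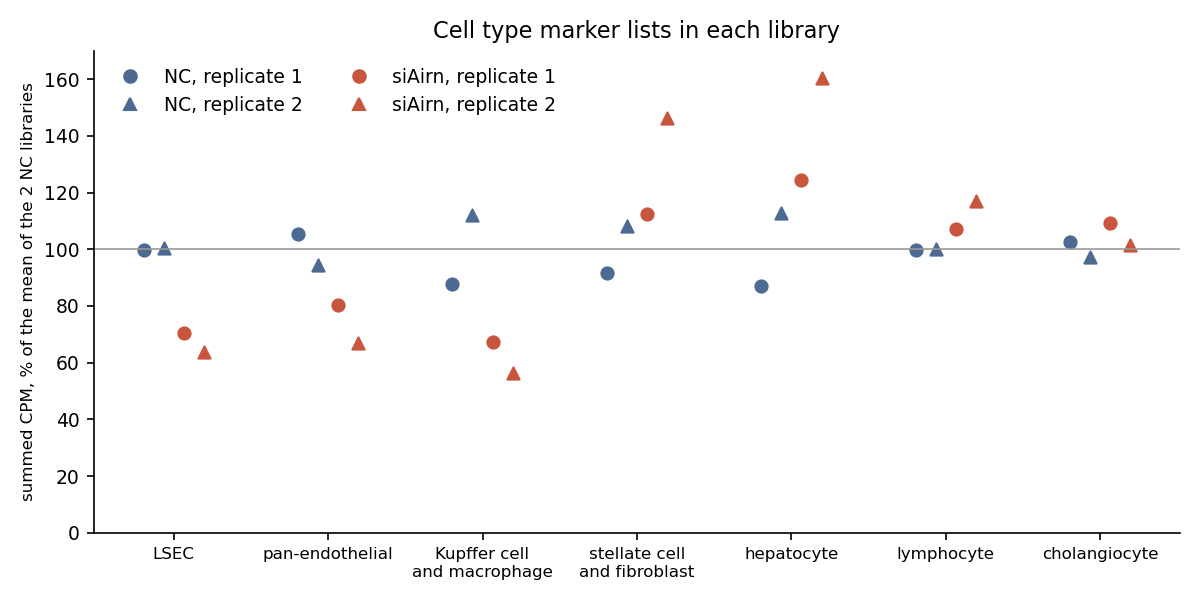
Summed CPM of each cell type marker list in each library, as a percentage of the mean of both NC libraries, with NC in blue and siAirn in red. The LSEC, pan-endothelial and macrophage sums are lower, and the stellate cell and hepatocyte sums higher, in both siAirn libraries.

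Set against the endothelial sums, 6 of the 8 genes that fell overlapped between the groups. Per 1000 CPM of summed pan-endothelial markers, *Eng* was at 443.0 and 543.0 in NC, against 383.0 and 462.0 in si*Airn*, and *Bmp2* at 41.8 and 46.2 in NC and 39.4 and 45.3 in si*Airn*, with overlapping groups. *Bmp6* stayed lower in both si*Airn* libraries, at 33.5 and 30.8 against 38.4 and 38.7, and so did *Bmp4*, at 5.10 and 5.40 against 5.60 and 6.12. *Bmpr2* (33.2 and 36.4 in NC, 50.6 and 58.5 in si*Airn*) and *Smad7* (10.5 and 13.4 in NC, 14.5 and 18.7 in si*Airn*) were higher. On this scale 6 of the 10 genes overlapped between groups, 2 were lower and 2 higher, whereas of all genes tested 74.9% did not overlap, 2.81% being lower and 72.1% higher, the divisor itself being lower in si*Airn*. Against the LSEC markers 6 overlapped, 4 were higher (*Bmpr2*, *Smad7*, *Id3* and *Bmp2*) and none was lower, beside 88.1% of all genes that did not overlap, 1.81% lower and 86.3% higher. There *Bmp6* (69.6 and 62.4 in NC, 65.3 and 55.5 in si*Airn*) and *Bmp4* overlapped between the groups. The pan-endothelial sum was led by *Cdh5* (-0.58) and *Pecam1* (-0.53), which fell themselves, whereas *Kdr* (0.02) and *Tek* (-0.05) in the same list did not. The study reports VE-cadherin (*Cdh5*), *Flt4*, *Lyve1* and *Stab1* as lowered by the knockdown, so neither sum is a scale independent of the treatment. These ratios are descriptions with no test, and what part the endothelial share of the RNA has in the result was not tested.

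**Figure D5:**
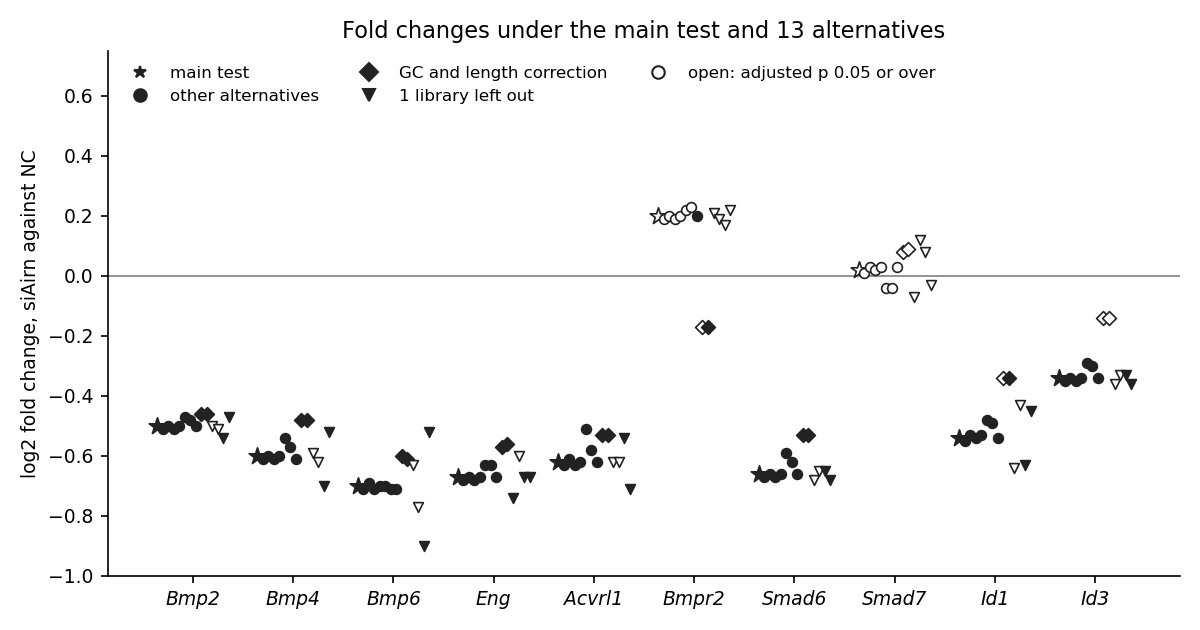
Log2 fold change (siAirn against NC) of the 10 genes under the main test (star) and 13 alternatives, filled where the adjusted p was under 0.05, with diamonds for the GC and length correction and triangles for fits with 1 library left out. The 8 called genes stay below 0 throughout, *Bmpr2* is below 0 under the GC and length correction, and *Smad7* lies on both sides of 0.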

How the data were processed

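RNA-seq of 4 libraries of primary mouse LSECs (2 NC, 2 si*Airn*) was analysed from the table the authors deposited, which holds a read count and an expression value for 18373 genes in each library. The count columns deposited by the authors hold expected counts, of the kind RSEM estimates by sharing ambiguous reads between genes, and of which 76.5% to 76.8% were exactly whole (tolerance 0) at the 2 decimals deposited, and they were rounded before testing. The deposited expression columns were read as FPKM, a unit inferred from the values. Per the submitters' processing notes, RSEM, Bowtie2 and BWA were used, with no version or role, and the build named is hg19 although the organism is mouse, so no coordinates of the files were used. The libraries were read as single-end reads of 50 bases on a BGISEQ-500.

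Counts were tested with edgeR 4.0.16 (filterByExpr, TMM, quasi-likelihood F test) in R 4.3.3, with Benjamini-Hochberg adjustment over 13628 genes and a threshold of 0.05. A 95% interval used the total degrees of freedom of the fit, and SE is the log2 fold change over the root of F. CPM used TMM library sizes. Library totals were 17308382 to 18371959, the TMM factors 0.985 to 1.02 and the common biological coefficient of variation 0.0754. Replicates of a group differed beyond counting noise (chi-square per degree of freedom 6.37 in NC and 8.51 in si*Airn*), and each was counted as a sample. The script was tested on simulated data.

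The 13 alternatives were upper-quartile scaling, DESeq2 1.42.0, 2 other count filters, limma 3.58.1 on log2(FPKM + 1) and log2(FPKM + 0.1) (genes averaging an FPKM under 1 were left out), a replicate block, a spline correction for GC and length with and without that block, and each library left out. With a library left out, the lone sample of its group was assumed to vary like those of the other group. GC content and length came from the longest GENCODE M21 transcript, found for 12948 genes (95.0%), and overlap of exons from the same annotation. Promoter windows came from RefSeq.

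All 10 genes are given by value. Of the wider BMP list, genes with an adjusted p under 0.05 and the tested receptors and SMADs are named, and the others by counts and range; other ligands and target genes of that list were named after their values were seen. *Hjv* was found under its older symbol *Hfe2*, and *Bmp3* and *Sostdc1* were not matched in the table. Of each marker list the most abundant pair is named, and *Kdr* and *Tek* were added after their values were seen. The genes, lists and tests were chosen with earlier results of these data known. No correlation between genes was computed, since 4 libraries give no measure of likeness.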

Additional observations from a re-analysis of the deposited data

How the results depend on the processing

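With all libraries kept, the number of the 10 genes called was 8 under 6 of 9 alternatives, 9 with the replicate block, 6 with the GC and length correction and 8 with both together, where *Id3* was not called and *Bmpr2* was called as lower, and the median log2 fold change was -0.57 in the main test and -0.47 under both GC and length corrections. *Bmp2*, *Bmp4*, *Bmp6*, *Eng*, *Acvrl1* and *Smad6* were called under all 9. The wider BMP list had 7 calls in the main test, 4 under each limma fit, 5 with the correction, 17 with the block and 14 with the block and the correction, and its median of 0.19 was 0.13 under both corrections. The whole table had 2294 calls in the main test, 1104 with the correction, 4841 with the block and 4323 with both, and the correction moved the share of calls that were higher in si*Airn* from 49.1% to 32.7% (42.6% with the block). With single libraries left out, calls ranged from 0 to 8 among the 10 genes, from 0 to 11 in the wider list and from 0 to 2410 over the whole table (40 without NC replicate 1, 0 without NC replicate 2, 2410 when si*Airn* replicate 1 was dropped and 1446 when replicate 2 of that group was dropped). The cause of these differences was not tested.

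Same-numbered libraries deviated together with a correlation of 0.233 over genes, but there are only 2 pairs and no label ties a number to an animal or a day, so the block is given only here and beside *Bmpr2*.

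Signs changed as follows. Under the GC and length correction, with and without the block, *Bmpr2* was at -0.17 and *Smad5* at -0.01. Under both limma fits *Smad7* was at -0.04, *Acvr1* at 0.02 and *Rgmb* at 0.04. With single libraries left out, *Smad7* ranged from -0.07 to 0.12, *Acvr1* from -0.08 to 0.06, *Rgmb* from -0.14 to 0.06, *Rgma* from -0.08 to 0.28, *Acvr2b* from -0.11 to 0.22, *Bmp8b* from -0.35 to 0.09, *Bmper* from -0.25 to 0.02, *Fstl1* from -0.04 to 0.36 and *Hey2* from -0.30 to 0.35. DESeq2 gave no adjusted p for *Grem1*, which the FPKM filter also left out of limma.

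With 2 libraries a group the depth allows changes such as those of *Id1* (353 to 598 counts a library) to be tested, whereas *Bmpr1b*, *Smad9* and *Hey2*, near 1 CPM, have wide 95% intervals (-0.49 to 1.52, -0.66 to 1.21 and -1.16 to 1.12). *Grem1*, at a similar level, was called with a larger log2 fold change (1.61).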
